A study of Mus musculus with 10 samples.

Results

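The genes described here were 45 genes of the pancreatic stroma, out of 24062 genes listed in the count files. They were chosen by symbol from a fixed list of extracellular matrix genes, matrix enzymes and marker genes of stellate cells, fibroblasts and mural cells. The rule holds no measured value, but the list was chosen with earlier results of these data known. All 45 symbols were found in the files. The list holds 5 genes of fibrillar collagens, 4 of collagens VI and XIV, 10 of the basement membrane, 7 of elastic fibres and matrix glycoproteins, 3 small leucine-rich proteoglycans, 7 matrix enzymes, inhibitors and a collagen chaperone, and 9 stellate, fibroblast and mural markers.

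The study asks what IL-23 does to newborn mice, and these RNA-seq libraries address the pancreas. Whole pancreas RNA of 5 wild-type (WT) and 5 KSR23 mice was sequenced at postnatal day 5, all on the C57BL/6 background. KSR23 mice carry an IL-23 cassette (R23) that is switched on by Cre recombinase under the keratin 14 promoter, which places IL-23 production in keratinocytes. WT mice, which the paper calls littermates, were the controls. No group analysed here is labelled as carrying the cassette alone or Cre alone, and the labels do not say whether WT mice carried either.

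The stroma of the pancreas is a minor tissue between the exocrine acini. Its quiescent stellate cells and fibroblasts make fibrillar collagens and proteoglycans, pericytes and smooth muscle cells surround the vessels, and epithelial and endothelial cells rest on a basement membrane of collagen IV, laminins, nidogens and perlecan. In injury, stellate cells can become myofibroblasts, a state known for alpha smooth muscle actin and for a rise of collagen I, and matrix then builds up as fibrosis. Matrix amount also depends on the enzymes that crosslink it, on metalloproteinases that cut it and on the tissue inhibitors (TIMPs) that block them.

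Gene counts per library were from 26830235 to 33189132 in WT and from 16715976 (replicate 3) to 57784136 in KSR23. A count of 3, taken as the floor, corresponded to 0.0536 to 0.168 CPM. CPM here is a gene's count relative to a library size scaled by the trimmed mean of M values (TMM). KSR23 replicate 3, the library with the fewest counts, also stood apart on the second axis of a principal component analysis over all genes tested (9.28% of the variance in log2 CPM), with a score of 33.4 beside -13.3 to 6.42 in the other 9 libraries. Il23a, which encodes the p19 subunit of IL-23, was at 0.179 ± 0.102 CPM in WT and 1.07 ± 0.138 CPM in KSR23 (SD, n = 5 each) with no overlap, and Il12b, which encodes p40, was at 0.0680 ± 0.100 and 0.187 ± 0.0933 CPM with overlap. Both genes had few reads, with 1 to 9 counts of Il23a in WT libraries. Il12b had 0 to 7 counts in WT and 3 to 13 in KSR23 libraries, many at or near the floor. Neither gene had at least 5 counts in every library, so neither was tested. Reads of the cassette and of the mouse's own genes cannot be told apart in these counts. Alignments that were not unique, which count for no gene, made up 49.6% to 53.7% of all tallied alignments in WT and 38.5% to 42.5% in KSR23, and their part in the results was not tested.

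Between WT and KSR23 pancreas, 24.4% of the members passed the test, beside 31.0% of all genes tested. The members that passed moved in both directions, as did all genes tested, with 2250 higher and 2049 lower. Of the 45 members, 7 were lower in KSR23 and 4 were higher at an adjusted p under 0.05, from edgeR's quasi-likelihood F test of all genes that passed the filter, adjusted by the method of Benjamini and Hochberg. The lower members were Postn, Lum, Acta2, Lox, Serpinh1, Rgs5 and Sparc. The higher members were Timp1, Pdgfrb, Mmp2 and Loxl1. None of the 19 collagen and basement membrane members was called. Without KSR23 replicate 3, 6 members were higher and 6 lower, with Col4a2, Lamb1 and Timp3 called higher and Loxl1 and Rgs5 no longer called.

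All 45 members passed the filter of at least 5 counts in every library, so every member was tested. The members called made up 24.4% of the list, beside 31.0% of the 13882 genes tested. Calls in the higher direction made up 16.2% of all genes tested, and calls in the lower direction 14.8%. The median log2 fold change (FC, KSR23 over WT) was -0.0026 over the members and -0.0056 over all genes tested, and 22 of the 45 members had an FC above 0. The groups of mice did not overlap for 6 lower and 2 higher members, beside 19.4% of all genes tested. Since these are whole-tissue libraries, fewer cells of a type and less RNA per cell cannot be told apart for any of these genes.

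The scaling of the libraries bears on the counts. With libraries scaled by their totals alone, 9 members were higher and 4 lower, and among all genes tested 72.6% of the calls were higher in place of 52.3%. The median log2 FC was then 0.091 over the members and 0.087 over all genes. Sparc, Serpinh1 and Rgs5 lost their calls under that scaling, and Col4a2, Lamb1, Fbln1, Timp3 and Des were then called higher. Postn, Lum, Acta2 and Lox were called lower and Timp1, Pdgfrb and Mmp2 higher under all 18 alternatives tried.

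**Figure D1:**
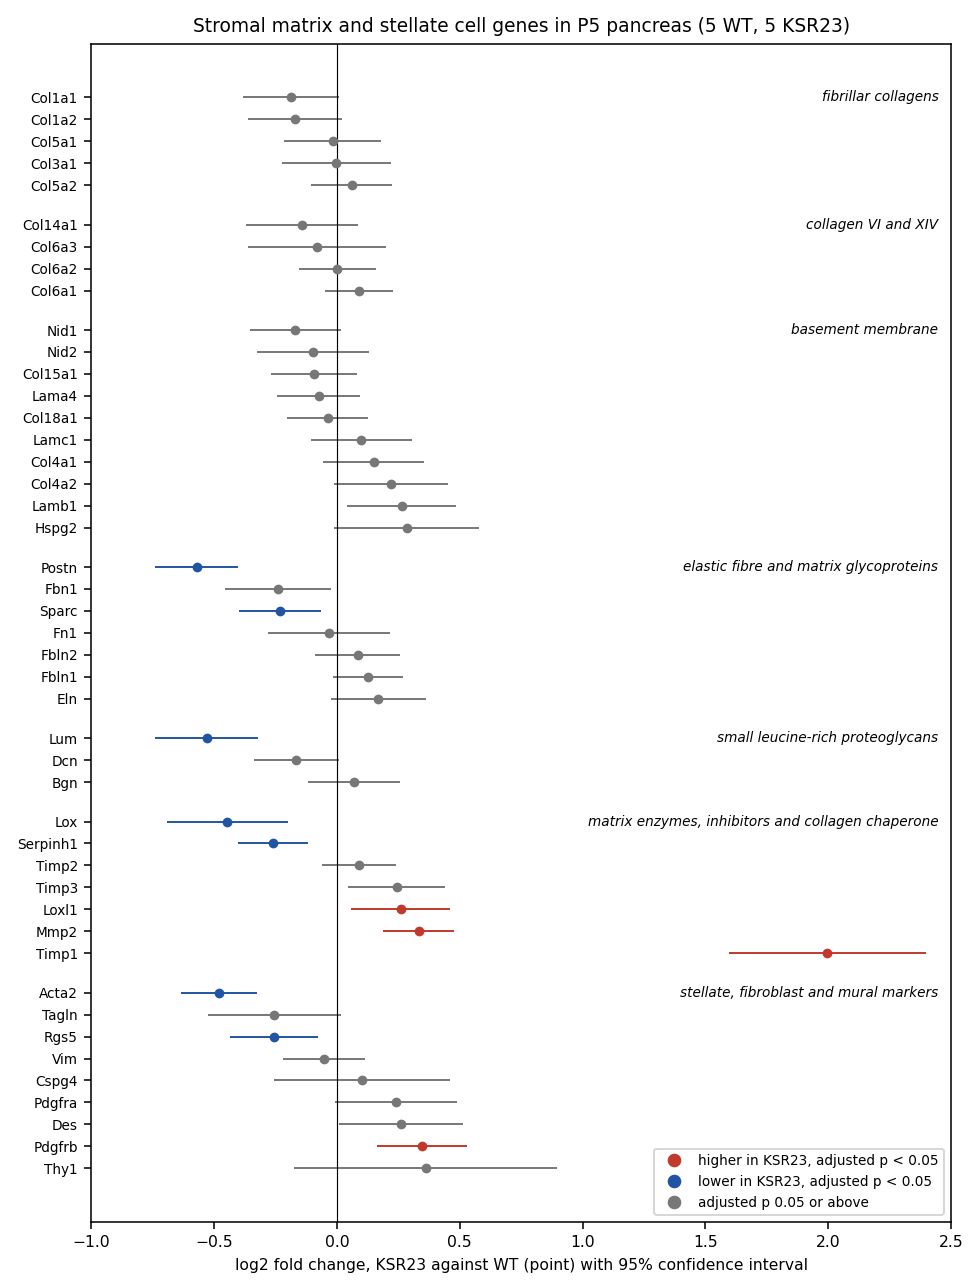
Log2 FC (horizontal axis, KSR23 over WT) of the 45 members with the 95% confidence interval, ordered within the 7 gene groups; red marks members called higher, blue those called lower and grey those not called. Timp1 stands alone at 2.0, while the other 44 members lie between -0.57 and 0.36.

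Timp1 had the largest change of the members. It encodes a secreted inhibitor of matrix metalloproteinases that many cell types make in inflammation. In WT mice (replicates 1 to 5) Timp1 was at 2.52, 2.85, 1.62, 1.71 and 3.13 CPM, and in KSR23 mice at 12.2, 8.33, 6.88, 9.83 and 9.63 CPM. Every KSR23 value was above every WT value, and the fitted level was 3.99-fold higher (log2 FC 2.0, SE 0.191, adjusted p = 2.92e-07). Timp1 was among the members with the fewest reads, with 46 to 84 counts in WT and 123 to 539 in KSR23 libraries. Per kilobase of transcript it was at 2.68 CPM in WT and 10.6 CPM in KSR23, and the level in KSR23 was still below that of Timp2 (58.2 CPM per kb) and Timp3 (16.1 CPM per kb).

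The other TIMPs did not pass the test. Timp2 was at 203 ± 14.1 CPM in WT and 216 ± 19.4 CPM in KSR23 (log2 FC 0.09, 95% interval -0.06 to 0.24). Timp3, an inhibitor that stays bound to the matrix, was at 64.5 ± 3.17 and 76.2 ± 13.1 CPM (log2 FC 0.24, interval 0.04 to 0.44, adjusted p = 0.0584). Other genes of the annotation cover 21.3% of the exonic bases of Timp3, namely exons of Syn3, and the strand setting of the counting is not given in the sources used here, so reads of both genes may not be separated. Timp3 was called with KSR23 replicate 3 or KSR23 replicate 5 left out.

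Among the enzymes, Mmp2 and Loxl1 rose and Lox fell. Mmp2, a gelatinase that cuts denatured collagen and collagen IV, was at 86.7, 89.4, 91.4, 81.9 and 96.7 CPM in WT and 118, 108, 110, 123 and 102 CPM in KSR23. The groups did not overlap, and the FC on the log2 scale was 0.33 (SE 0.0688, adjusted p = 0.00131). On the log2 scale per kb, Mmp2 relative to Timp2 was at -0.92 ± 0.12 in WT and -0.67 ± 0.050 in KSR23, also without overlap.

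Lox encodes lysyl oxidase, which crosslinks collagen and elastin. Its level was 35.5, 44.6, 55.3, 53.8 and 43.7 CPM in WT and 37.3, 40.2, 34.1, 32.5 and 27.1 CPM in KSR23, and the fitted level fell by 26.6% (log2 FC -0.45, SE 0.117, adjusted p = 0.00746). The groups overlapped because WT replicate 1 was below KSR23 replicates 1 and 2. Loxl1, the family member tied to elastic fibres, was at 58.3, 55.5, 63.3, 42.0 and 64.0 CPM in WT and 69.8, 70.2, 73.8, 63.7 and 61.9 CPM in KSR23 (log2 FC 0.26, SE 0.0960, adjusted p = 0.0468). KSR23 replicates 4 and 5 lay within the WT range of Loxl1. This call was near the threshold, with an adjusted p of 0.0201 to 0.116 over the 18 alternatives. It was lost in 10 of them, including each fit without WT replicate 1, 2 or 4 or without KSR23 replicate 1, 2, 3 or 4.

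Serpinh1 encodes HSP47, the chaperone of procollagen in the endoplasmic reticulum. It was at 415, 395, 388, 371 and 414 CPM in WT and 314, 370, 338, 295 and 336 CPM in KSR23. The highest KSR23 value lay just below the lowest WT value, and the fitted level fell by 16.6% (log2 FC -0.26, SE 0.0678, adjusted p = 0.00705). Its adjusted p was 0.0747 with libraries scaled by totals alone.

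The stretches before the start sites of Timp1, the member with the largest rise, Postn, the one with the largest fall, and Serpinh1 are given to show the sequence context of members called in each direction. Each is the 250 bases upstream of a RefSeq transcript start in GRCm38.p6, free of annotated exons and written on the strand of the gene. Capitals mark a match to 1 of 5 motifs searched on both strands.
Timp1 (chrX:20869916-20870165, plus strand): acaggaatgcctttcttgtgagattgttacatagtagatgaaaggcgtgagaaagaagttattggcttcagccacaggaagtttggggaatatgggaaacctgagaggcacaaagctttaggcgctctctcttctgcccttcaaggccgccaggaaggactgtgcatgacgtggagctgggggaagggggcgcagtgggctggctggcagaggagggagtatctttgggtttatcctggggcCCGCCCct
Postn (chr3:54360857-54361106, plus strand): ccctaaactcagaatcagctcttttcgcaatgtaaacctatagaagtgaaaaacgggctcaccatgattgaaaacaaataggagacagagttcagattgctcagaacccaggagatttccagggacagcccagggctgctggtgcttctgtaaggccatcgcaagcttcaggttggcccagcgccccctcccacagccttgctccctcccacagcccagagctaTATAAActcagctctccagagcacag
Serpinh1 (chr7:99353240-99353489, minus strand): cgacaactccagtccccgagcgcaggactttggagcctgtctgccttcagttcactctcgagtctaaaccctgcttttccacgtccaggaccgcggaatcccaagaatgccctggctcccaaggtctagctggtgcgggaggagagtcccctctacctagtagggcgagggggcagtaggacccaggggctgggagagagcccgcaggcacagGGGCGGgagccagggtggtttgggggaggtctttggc
The match of Timp1 is a GC box (GGGCGG, here on the opposite strand) that begins 8 bases before the start. Serpinh1 has a GC box 37 bases before the start, and Postn has a TATA box (TATAAA) 26 bases before the start shown. RefSeq gives Postn another, upstream start, whose window (chr3:54359017-54359266) held none of the 5 motifs.

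RefSeq windows were matched for 29 members, with 33 start sites. A GC box was in 19 of these 33 windows, beside 32.7% of all 32851 windows. TATA boxes were in the windows of Col3a1, Postn and Vim, beside 12.4% of all windows, the heat shock element core (TTCNNGAA or GAANNTTC) in that of Pdgfra, beside 12.8%, and the AP-1 motif (TGANTCA) in that of Col6a1, beside 6.75%. The STAT motif (TTCNNNGAA) was in 7.02% of all windows and in 0 of the 33 member windows, which says only that these letters were not in these stretches. These matches are descriptions of the sequence and were not tested against the expression values.

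**Figure D2:**
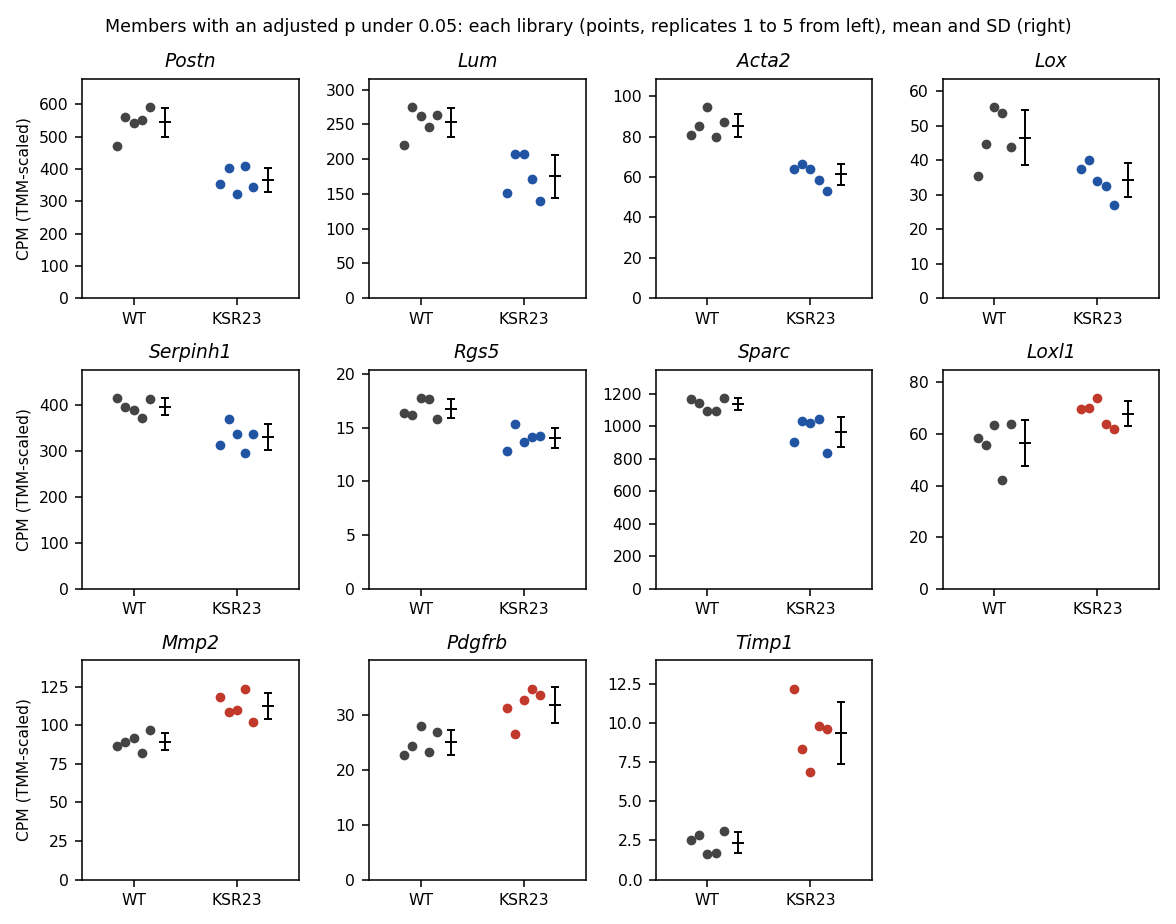
CPM (vertical axes, TMM-scaled, each from 0) of the 11 called members in each library; points are replicates 1 to 5 from left to right, and the bar to the right of each group is the mean with SD. The groups are separate for Postn, Lum, Acta2, Serpinh1, Rgs5, Sparc, Mmp2 and Timp1 and overlap for Lox, Loxl1 and Pdgfrb.

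Postn and Lum fell the most. Periostin, encoded by Postn, is a matricellular protein that fibroblasts make in growing and healing tissue. Postn was at 473, 562, 543, 553 and 591 CPM in WT and 355, 403, 321, 409 and 344 CPM in KSR23. All KSR23 values lay below all WT values, and the fitted level fell by 32.7% (log2 FC -0.57, SE 0.0802, adjusted p = 2.88e-05).

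Sparc encodes another matricellular protein, osteonectin, which binds collagen. It was at 1170, 1141, 1096, 1097 and 1173 CPM in WT and 907, 1030, 1018, 1044 and 835 CPM in KSR23, again without overlap (log2 FC -0.23, SE 0.0796, adjusted p = 0.0341). Its adjusted p ran from 0.00503 to 0.237 over the alternatives, and the call was lost without WT replicate 1, 2 or 5 and without KSR23 replicate 1 or 5.

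The other 5 genes of this group were not called. Fn1, which encodes fibronectin, was at 94.2 ± 5.08 CPM in WT and 91.9 ± 22.5 CPM in KSR23 (log2 FC -0.03, interval -0.28 to 0.21). On the log2 scale per kb, Postn relative to Fn1 was at 3.91 ± 0.11 in WT and 3.40 ± 0.23 in KSR23, without overlap. Fbn1, the gene of fibrillin 1, had a log2 FC of -0.24 (interval -0.45 to -0.02, adjusted p = 0.0861) and was called lower with KSR23 replicate 4 left out. Gm9913, which is not in the count files, overlaps 20.1% of the exonic bases of Fbn1.

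Elastin (Eln) was at 378 ± 48.6 and 425 ± 51.3 CPM, with a log2 FC of 0.17 (interval -0.03 to 0.36). The fibulins, which join elastic fibres and basement membranes, had log2 FC of 0.13 (Fbln1, interval -0.02 to 0.27) and 0.08 (Fbln2, interval -0.09 to 0.26). The elastic fibre genes therefore gave intervals that reach no further than 0.45 from 0 in either direction.

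Of the small leucine-rich proteoglycans, which bind collagen fibrils and set their width, Lum alone was called. Lum, the gene of lumican, was at 220, 274, 262, 246 and 263 CPM in WT and 151, 207, 207, 172 and 139 CPM in KSR23, with no overlap (log2 FC -0.53, SE 0.101, adjusted p = 0.000616). Decorin (Dcn) was at 886, 956, 961, 863 and 919 CPM in WT and 814, 857, 857, 890 and 671 CPM in KSR23, where replicate 4 lay within the WT range (log2 FC -0.17, interval -0.34 to 0.01, adjusted p = 0.136). Biglycan (Bgn) had a log2 FC of 0.07 (interval -0.12 to 0.25).

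Lum and Dcn lie near each other on chromosome 10 and on the same strand, with Dcn at 97479609 to 97518143 and Lum at 97565128 to 97572703 (GRCm38, GENCODE M21). Lum relative to Dcn, on the log2 scale per kb, was at -2.34 ± 0.088 in WT and -2.71 ± 0.18 in KSR23. The lowest WT ratio (-2.49) was just above the highest KSR23 ratio (-2.52), so the groups did not overlap in this ratio.

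Among the 9 stellate, fibroblast and mural markers, 2 were lower, 1 was higher and 6 were not called. The share called was 33.3%, beside 31.0% of all genes tested. Acta2, the gene of alpha smooth muscle actin, is used as the marker of activated stellate cells and is also high in vascular smooth muscle. It was at 80.9, 85.2, 94.5, 80.0 and 87.1 CPM in WT and 63.9, 66.5, 64.3, 58.8 and 53.2 CPM in KSR23. The groups did not overlap, and the fitted level fell by 28.4% (log2 FC -0.48, SE 0.0734, adjusted p = 7.2e-05).

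Rgs5, a regulator of G-protein signaling that marks pericytes, was at 16.4, 16.2, 17.7, 17.6 and 15.8 CPM in WT and 12.8, 15.3, 13.7, 14.1 and 14.3 CPM in KSR23, without overlap (log2 FC -0.26, SE 0.0851, adjusted p = 0.0298). Its adjusted p was between 0.0140 and 0.158 over the alternatives, and the call was lost without WT replicate 3 or 4 and without KSR23 replicate 1, 3 or 4. Pdgfrb, the PDGF receptor of pericytes and mesenchymal cells, moved the other way, from 22.7, 24.4, 28.0, 23.3 and 26.9 CPM in WT to 31.4, 26.6, 32.8, 34.8 and 33.7 CPM in KSR23 (log2 FC 0.35, SE 0.0875, adjusted p = 0.00596). Only KSR23 replicate 2 lay within the WT range of Pdgfrb.

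Both genes are known as pericyte markers. Pdgfrb relative to Rgs5 (log2 scale per kb) was at 0.18 ± 0.15 in WT and 0.78 ± 0.22 in KSR23, with no overlap. Cspg4 (NG2), another pericyte marker, was at 5.05 ± 1.04 and 5.37 ± 1.09 CPM (log2 FC 0.10, interval -0.26 to 0.46).

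The remaining 5 markers were not called. Tagln (SM22, smooth muscle) had a log2 FC of -0.26 (interval -0.53 to 0.02), and 67.9% of its exonic bases are shared with other annotated genes, most of them noncoding. Desmin (Des), the classical marker of quiescent stellate cells in rodents, had a log2 FC of 0.26 (interval 0.01 to 0.51, adjusted p = 0.107), and Pdgfra, which marks fibroblasts, had 0.24 (interval -0.01 to 0.49). Vimentin (Vim) was at 127 ± 8.51 and 122 ± 14.7 CPM, and Thy1 had few reads, at 1.27 ± 0.209 and 1.65 ± 0.549 CPM with 27 to 100 counts per library.

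The fibrillar collagens were the members with the most reads as a group, and none of them passed the test. Col3a1 was the member with the highest level in both groups, at 795 CPM per kb in WT and 794 CPM per kb in KSR23, followed by Dcn (522 and 465) and Sparc (494 and 420) on the same scale. At the low end of that scale, in WT, were Hspg2 (0.837), Thy1 (0.734) and Cspg4 (0.621). Hspg2 and Cspg4 have principal transcripts of 14.2 and 8.12 kb, and how evenly reads covered long transcripts was not tested. The 5 fibrillar collagen genes together summed to 7252 to 9302 CPM in WT and 6783 to 8848 CPM in KSR23.

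Collagen I is a trimer of the Col1a1 and Col1a2 chains. Col1a1 was at 2143, 2037, 1954, 1936 and 2512 CPM in WT and 1691, 1876, 1961, 2016 and 1751 CPM in KSR23 (log2 FC -0.19, interval -0.38 to 0.01, adjusted p = 0.137). Col1a2 was at 1148, 1108, 1121, 1066 and 1403 CPM in WT and 968, 1003, 1069, 1192 and 960 CPM in KSR23 (log2 FC -0.17, interval -0.36 to 0.02). Both chains were highest in WT replicate 5, and both groups overlapped.

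The ratio of the chains stayed close. Col1a1 relative to Col1a2 was at 0.71 ± 0.038 in WT and 0.69 ± 0.059 in KSR23 on the log2 scale per kb, while each gene by itself had an SD of 0.11 to 0.16 in log2 CPM within a group. Col3a1 had a log2 FC of -0.00 (interval -0.23 to 0.22). Col5a1 and Col5a2, chains of the collagen that nucleates fibrils, had log2 FC of -0.02 (interval -0.21 to 0.18) and 0.06 (interval -0.11 to 0.23). These intervals leave room for a fall of up to 0.38 (Col1a1) or a rise of up to 0.23 (Col5a2) on the log2 scale.

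The beaded-filament collagen VI and the fibril-associated collagen XIV were not called either. Col6a1 had a log2 FC of 0.09 (interval -0.05 to 0.23), Col6a2 of 0.00 (interval -0.16 to 0.16) and Col6a3 of -0.08 (interval -0.36 to 0.20). Col6a1 and Col6a2 are neighbors on chromosome 10, and their ratio on the log2 scale per kb was 0.58 ± 0.030 in WT and 0.67 ± 0.12 in KSR23. Col14a1 had a log2 FC of -0.14 (interval -0.37 to 0.09), and it was called lower without KSR23 replicate 4.

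The 10 basement membrane members had log2 FC between -0.17 and 0.28. Laminin chain Lamb1 was at 73.0, 68.9, 74.1, 67.1 and 91.9 CPM in WT and 98.6, 80.4, 74.2, 112 and 84.0 CPM in KSR23 (log2 FC 0.26, interval 0.04 to 0.49, adjusted p = 0.0658). It was called higher without WT replicate 5, without KSR23 replicate 2 and without KSR23 replicate 3. Perlecan (Hspg2) had the highest log2 FC of the group at 0.28 (interval -0.01 to 0.58), and its 2 nidogen partners had the values -0.17 (Nid1, interval -0.36 to 0.02) and -0.10 (Nid2, interval -0.32 to 0.13).

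Col4a1 and Col4a2 encode the main chains of collagen IV and are transcribed in opposite directions from a shared region of chromosome 8. Col4a1 was at 293, 291, 320, 292 and 327 CPM in WT and 331, 287, 274, 423 and 374 CPM in KSR23 (log2 FC 0.15, interval -0.06 to 0.35). In KSR23 mice each of the 2 genes had an SD of 0.26 to 0.28 in log2 CPM, while their ratio had an SD of 0.041. In WT mice the ratio had an SD of 0.10, Col4a1 by itself 0.081 and Col4a2 0.17. Col4a2 had a log2 FC of 0.22 (interval -0.01 to 0.45, adjusted p = 0.142) and was called higher without KSR23 replicate 3.

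Lama4 (-0.07, interval -0.24 to 0.09), Lamc1 (0.10, interval -0.10 to 0.30), Col15a1 (-0.09, interval -0.27 to 0.08) and Col18a1 (-0.04, interval -0.20 to 0.13) had log2 FC nearer to 0.

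**Figure D3:**
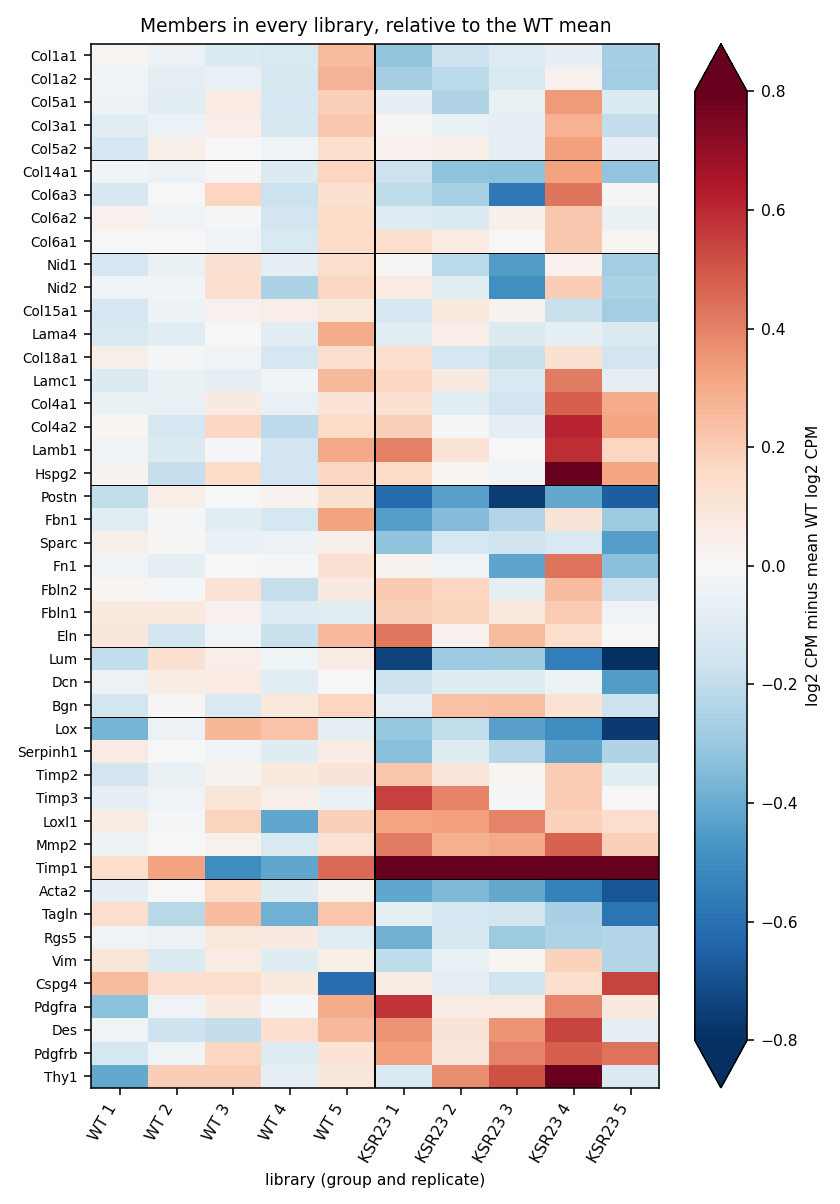
Log2 CPM of the 45 members (rows, in the order of the gene groups) in each of the 10 libraries (columns), relative to the mean of the WT libraries; red is above and blue below it, and values beyond 0.8 share the end color. WT 5 and KSR23 4 are red over most collagen and basement membrane rows, and Timp1 exceeds the scale in all KSR23 libraries.

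Within each group, 1 mouse was highest for most of the members. WT replicate 5 had the highest value of the WT mice for 29 of the 45 members (64.4%), beside 21.2% of all genes tested, and WT replicate 4 the lowest for 22 (48.9%, beside 19.8%). In KSR23, replicate 4 was highest for 28 members (62.2%, beside 19.0% of all genes tested), replicate 5 lowest for 19 (42.2%, beside 20.6%) and replicate 3 lowest for 17 (37.8%, beside 21.4%). Not every member followed, and Cspg4 was lowest in WT replicate 5, at 3.24 CPM. The deviation from the group's mean log2 CPM had a median of 0.13 in WT replicate 5 and 0.16 in KSR23 replicate 4.

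The members summed to 13320 to 16130 CPM in WT and 12180 to 15370 CPM in KSR23, or 1.24% to 1.61% and 1.18% to 1.59% of the gene counts. This range within each group was wider than the shift between the group medians, which were 13990 and 13320 CPM. The groups did not overlap for Postn, Acta2 and Mmp2, which are among 6 lower and 2 higher such members, beside 19.4% of all genes tested. They overlapped for the called members Lox, Loxl1 and Pdgfrb.

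Matrix genes outside the list of members were also called in both directions. Of the 21 other collagen genes tested, 4 were higher and 1 lower (23.8% called, beside 31.0% of all genes tested). Col7a1, the collagen of anchoring fibrils, was lower (9.75 against 6.39 CPM, log2 FC -0.60, adjusted p = 0.00304), and Col13a1, a transmembrane collagen, was higher (2.83 against 4.47 CPM, log2 FC 0.66, adjusted p = 0.00604).

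Of 16 other laminin and basement membrane genes tested, 7 were higher and 1 lower, with a median log2 FC of 0.37. The share of this list that was called lay above the 31.0% of all genes tested. Lama5, a laminin chain of epithelial basement membranes, rose from 6.86 to 14.1 CPM (log2 FC 1.04, adjusted p = 2.03e-05), and Smoc1, a SPARC-related glycoprotein, rose from 16.9 to 36.1 CPM (log2 FC 1.10, adjusted p = 3.74e-07). Fras1, of the epithelial basement membrane too, fell from 6.11 to 3.56 CPM (log2 FC -0.77, adjusted p = 0.00127).

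Of 32 other glycoproteins and proteoglycans, 6 were higher and 9 lower (46.9% called, beside 31.0% of all genes tested). Dermatopontin (Dpt) fell from 33.3 to 17.7 CPM (log2 FC -0.91, adjusted p = 3.13e-06) and osteoglycin (Ogn), a small leucine-rich proteoglycan like Lum, from 62.4 to 36.8 CPM (log2 FC -0.76, adjusted p = 1.35e-05). Osteopontin (Spp1) rose from 754 to 1308 CPM (log2 FC 0.79, adjusted p = 1.31e-07), and it is also a duct marker.

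The genes that modify and cleave matrix were called in both directions. The share called was 43.5% for collagen processing genes and 35.3% for other proteases and inhibitors, beside 31.0% of all genes tested. Of 23 collagen processing genes, 5 were higher, among them the lysyl hydroxylases Plod3 (log2 FC 0.39) and Plod1 (log2 FC 0.30), and 5 lower, among them the lysyl oxidase Loxl2 (log2 FC -0.90) and the prolyl hydroxylase subunit P4ha3 (log2 FC -0.68). Of 17 other proteases and inhibitors tested, 5 were higher, with Mmp9, another gelatinase, at 1.92 against 5.51 CPM (log2 FC 1.49, adjusted p = 0.000178) and the urokinase receptor Plaur at 3.83 against 8.13 CPM (log2 FC 1.08, adjusted p = 2.27e-05). The aggrecanase Adamts5 was the 1 lower gene of that list (log2 FC -0.36, adjusted p = 0.0374).

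Of 18 genes of TGF-beta and PDGF signaling, 5 were higher and 0 lower. This was 27.8% called, beside 31.0% of all genes tested in either direction and 16.2% in the higher direction. The matricellular gene Cyr61 (now Ccn1) was at 16.9 against 31.7 CPM (log2 FC 0.91, adjusted p = 3.22e-06), and the PDGF ligand Pdgfc at 9.35 against 12.8 CPM (log2 FC 0.46, adjusted p = 0.0051). Of 22 matrix receptors, 8 were higher and 3 lower, a larger share called than the 31.0% of all genes tested. The epithelial syndecan Sdc1 (35.6 against 92.3 CPM, log2 FC 1.38, adjusted p = 6.38e-11) and the laminin-binding integrin Itga3 (log2 FC 0.88) rose, while Itga8 (log2 FC -0.63) and Itgb3 (log2 FC -0.52) fell.

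**Figure D4:**
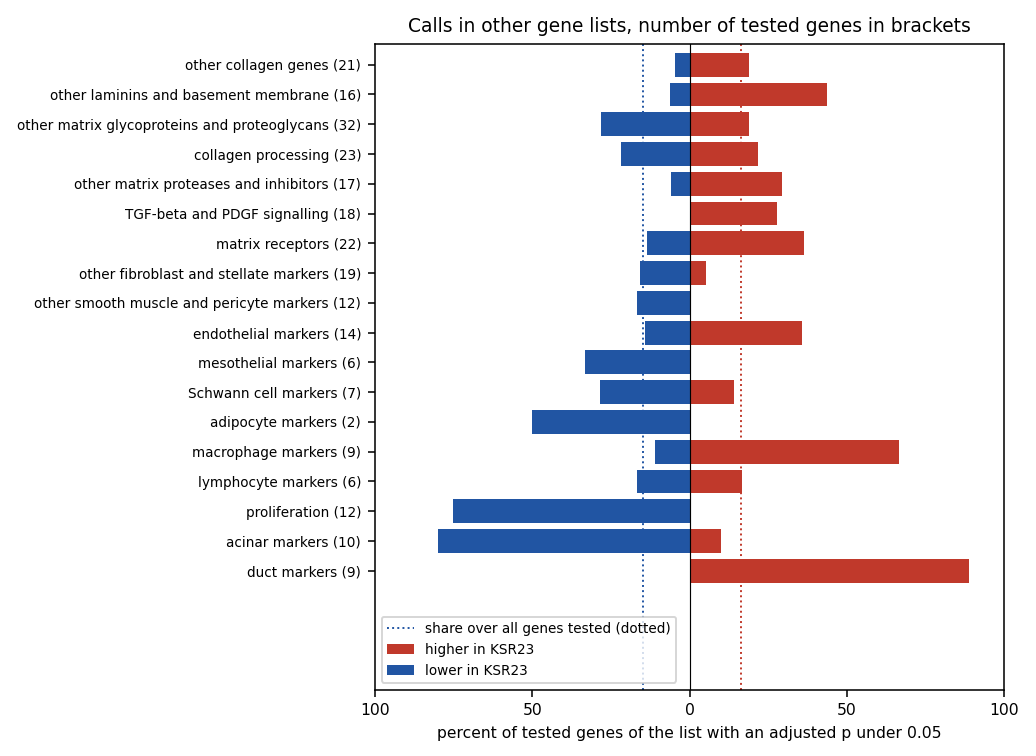
Percent of the tested genes of each other gene list that were called higher (red, to the right) or lower (blue, to the left) in KSR23, with the number of tested genes in brackets. Dotted lines mark the shares over all genes tested, 16.2% higher and 14.8% lower.

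Outside the list of members, calls were made for 21.1% of fibroblast and stellate markers, beside 31.0% of all genes tested. For smooth muscle and pericyte markers the share was 16.7%, all lower, beside 14.8% of all genes tested called lower. Of 19 other fibroblast and stellate markers tested, 1 was higher, gelsolin (Gsn, log2 FC 0.23, adjusted p = 0.0321), and 3 were lower, among them Pi16 (14.6 against 8.78 CPM, log2 FC -0.75, adjusted p = 0.000968), a marker of adventitial fibroblasts, and Fap (16.4 against 10.1 CPM, log2 FC -0.70, adjusted p = 0.000208), a protease of active fibroblasts. Their summed level was 813 to 960 CPM in WT and 823 to 991 CPM in KSR23. Of 12 other smooth muscle and pericyte markers, 2 were lower and 0 higher, namely Actg2 (10.9 against 6.65 CPM, log2 FC -0.72, adjusted p = 7.67e-05) and Myl9 (64.5 against 46.4 CPM, log2 FC -0.48, adjusted p = 1.12e-05), both of smooth muscle. The summed level of these 12 genes was 202 to 229 CPM in WT and 189 to 202 CPM in KSR23.

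Summed levels of acinar and duct markers did not overlap between the groups, while those of macrophage markers and proliferation genes did. Of these lists, in that order, 90.0%, 88.9%, 77.8% and 75.0% of the genes tested were called, beside 31.0% of all genes tested. Of 10 acinar markers 8 were lower and 1 higher, and their summed level was 202200 to 225400 CPM in WT and 150800 to 185600 CPM in KSR23. Of 9 duct markers 8 were higher, with sums of 1531 to 1708 and 2554 to 2791 CPM. Of 9 macrophage markers 6 were higher and 1 lower, with sums of 423 to 517 and 445 to 723 CPM, and of 12 proliferation genes 9 were lower, with sums of 449 to 491 and 291 to 502 CPM. No marker of these lists was at 0 in all libraries. Ducts, macrophages and dividing cells also express some matrix and matrix enzyme genes, and the part of these shifts in the results for the members was not tested.

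Members had long transcripts, and 17 of the 45 fell in the longest of 5 equal classes of genes by exonic length. The median log2 FC of all genes in these classes, from the shortest to the longest, was -0.033, 0.027, 0.038, 0.018 and -0.063. The part of transcript length in the results was not tested.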

How the data were processed

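Whole pancreas of WT and KSR23 mice at postnatal day 5 was analysed, with 5 libraries per group that the labels number as replicates and that were taken as 1 mouse each. Per the labels and the study's methods, the authors primed RNA with oligo-dT, amplified the cDNA by PCR, aligned single-end reads to mm10 with TopHat2 2.1.0 and counted uniquely aligned reads per gene with HTSeq 0.6.1p1. The annotation release and the strand setting are not given in the sources used here. The deposited values are raw counts without normalization. The 5 tallies of alignments given to no gene were left out of library sizes; alignments on no feature came to 5.19% to 6.88% of the gene counts. The methods name no molecular identifiers, so PCR copies count as reads and floors cover counting error only.

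After removal of genes with under 5 counts in any library, 13882 of 24062 genes were scaled by TMM and compared with the quasi-likelihood F test of edgeR 4.0.16 in R 4.3.3, with Benjamini-Hochberg adjustment over all of them and a threshold of 0.05. The SE of a log2 FC was derived from the F statistic, and intervals are at 95%. Ratios of 2 genes use the same values as the calls, were not tested and are no separate evidence. Log2 CPM used a prior count of 2. The script was tested on simulated counts. No 2 libraries of a group were copies (chi-square per degree of freedom of 11.8 or more). Positions are from GENCODE M21 (GRCm38, also called mm10), levels per kilobase use its principal transcripts, and upstream sequences are from RefSeq on GRCm38.p6.

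The members and all gene lists were chosen with earlier results of these data known. All members are named. From every other list at most the 2 largest rises and 2 largest falls among called genes were named. Muc16 of the mesothelial list was not found in the files. The alternatives were RLE size factors, library totals alone, totals without the 50 highest genes, no filter on low counts, filterByExpr, the likelihood ratio test used in the study, DESeq2 1.42.0, a replicate block, and 10 fits that each left out 1 mouse. Replicate numbers are shared by the groups but name different mice. Comparisons by the authors were not used, and other tissues of the study were not analysed here.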

Additional observations from a re-analysis of the deposited data

Results flagged for a closer look

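In 10 of the 90 groups of 5 mice formed by the 45 members, 1 mouse stood apart from the other 4 by Dixon's criterion at the 95% level, where chance gives about 4.5 (1 in 20 groups). Of the 10 values, 6 were from WT replicate 5 and 3 from KSR23 replicate 4.

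In WT replicate 5, Col1a2 was at 1403 CPM (the other WT mice at 1066 to 1148), Lama4 at 68.6 (51.3 to 56.0), Lamb1 at 91.9 (67.1 to 74.1), Lamc1 at 61.7 (47.8 to 50.8) and Fbn1 at 69.6 (50.5 to 55.3). Cspg4 was low in the same mouse, at 3.24 CPM beside 5.23 to 5.89. In KSR23 replicate 4, Col5a1 was at 186 CPM (the other KSR23 mice at 124 to 140), Col5a2 at 108 (82.2 to 89.0) and Col14a1 at 64.5 (41.2 to 45.9). Lama4 was at 57.8 CPM in KSR23 replicate 2, beside 51.5 to 53.0. None of these 9 genes was called. Without WT replicate 5 Lamb1 was called higher, and without KSR23 replicate 4 Col14a1 and Fbn1 were called lower.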

How the results depend on the processing

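Over the 45 members and 18 alternatives (810 values), 738 log2 FC kept their sign and their side of the threshold, 25 lost a call, 14 gained one and 33 changed sign. No member called in the reported fit changed sign. With library totals alone, 4 members were lower and 9 higher, and the signs turned for Col3a1 (0.091), Col5a1 (0.076), Col6a3 (0.0065), Col15a1 (9.3e-05), Col18a1 (0.056), Lama4 (0.016), Fn1 (0.061) and Vim (0.041). The log2 FC of Col6a2 turned to -0.0023 with RLE, -0.0078 without the 50 highest genes, -0.0063 with no filter, -0.0017 with filterByExpr, -0.0023 with DESeq2 and -0.0022 with the replicate block. The cause was not tested. With 1 mouse left out, the range spanned 0 for Col3a1 (-0.080 to 0.048), Col5a1 (-0.12 to 0.035), Col5a2 (-0.015 to 0.092), Col6a2 (-0.059 to 0.031), Col6a3 (-0.24 to 0.016), Fn1 (-0.18 to 0.049) and Cspg4 (-0.033 to 0.16), and the members called numbered 5 to 8 lower and 3 to 6 higher. Over all alternatives 3497 (without WT replicate 4) to 4652 (DESeq2) of all genes were called.

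Same-numbered mice did not deviate together (r from -0.11 to 0.066 between groups), and 1 of 5 correlated best with its own number. The fit with the replicate block called 3749 genes and 5 members lower and 4 higher, with Sparc and Rgs5 not called. Depth limits Timp1, Thy1 and Cspg4 most, which had under 100 counts in at least 1 library.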

Other observations

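Vascular, mesothelial and nerve markers, which the stroma surrounds, were also measured. Of 14 endothelial markers, 5 were higher and 2 lower in KSR23, with summed levels of 486 to 506 CPM in WT and 519 to 586 CPM in KSR23. These sums did not overlap between the groups, and the share of endothelial markers called lay above the 31.0% of all genes tested. Plvap, the diaphragm protein of fenestrated capillaries, was at 128 against 161 CPM (log2 FC 0.33, edgeR adjusted p = 0.0012), and Cdh5, the junction protein VE-cadherin, was at 24.1 against 17.4 CPM (log2 FC -0.47, adjusted p = 0.000218). Tie1 rose (log2 FC 0.33) and its relative Tek fell (log2 FC -0.27, adjusted p = 0.0488).

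Of 6 mesothelial markers tested, 2 were lower and 0 higher, Gpm6a (log2 FC -0.66) and Upk3b (log2 FC -0.25), with sums of 236 to 284 CPM in WT and 188 to 262 CPM in KSR23. The share called was 33.3% for mesothelial, 42.9% for Schwann cell and 33.3% for lymphocyte markers, beside 31.0% of all genes tested. The mesothelial calls were all lower, beside 14.8% of all genes tested called lower. Of 7 Schwann cell markers, Cdh19 (log2 FC -1.11) and Mbp (log2 FC -0.24) were lower, and Erbb3, which epithelial cells express too, was higher (5.73 against 12.4 CPM, log2 FC 1.12), with sums of 40.3 to 49.8 and 44.0 to 50.1 CPM. Fabp4, of fat cells, capillaries and macrophages, fell from 93.4 to 37.2 CPM (log2 FC -1.33, adjusted p = 6.09e-07), and it was the 1 called gene of the 2 adipocyte markers tested. Of 6 lymphocyte markers tested, Cd3e was lower (4.01 against 1.45 CPM, log2 FC -1.50) and Cd3g higher (0.383 against 0.708 CPM, log2 FC 0.87), with sums of 7.94 to 9.82 and 6.10 to 8.62 CPM. Among macrophage markers the subunit genes of complement C1q were called in both directions, C1qa from 94.1 to 54.1 CPM (log2 FC -0.80, adjusted p = 4.74e-07) and C1qb from 54.6 to 95.1 CPM (log2 FC 0.80, adjusted p = 2.47e-06), and Lyz2 rose (log2 FC 0.73). C1qa and C1qb encode chains of 1 protein complex, so these opposite calls are given as measured and their cause was not tested.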
